A study of Zea mays subsp. mays with 2 samples.

Results

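The deposited expression tables of maize endosperm list some genomic loci more than once, with the same chromosome, start and end in several rows and a separate FPKM value (fragment numbers divided by transcript length and by the library's mapped fragments) in each row. These multi-row loci were selected as coordinates on chromosomes 1 to 10 that occur in 2 or more rows and whose FPKM, summed over their rows, reached 5 in at least 1 library. The selection left 3028 loci with 6433 rows, of 38582 loci and 43446 rows in all. A further 1402 multi-row loci on the same chromosomes stayed under the minimum, with median sums of 1.38 FPKM in dek35 and 0.730 FPKM in wild type. The loci nearest to the limit were a chromosome 2 locus (14545463 to 14553791) left out at 4.99 FPKM in dek35 and 3.52 FPKM in wild type, and a chromosome 1 locus (63153549 to 63160476) kept at 3.92 FPKM in dek35 and 5.01 FPKM in wild type.

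The study profiled mRNA of kernel endosperm at 18 days after pollination from the maize defective-kernel mutant dek35 and from wild type, with 1 library of values per genotype. The labels state neither the allele nor the inbred background nor the number of kernels. The submitters' design text speaks of triplicates, but 1 column of values was used per genotype, so no difference reported here has a replicate check, an error or a test. Read depth is unknown, because the tables hold no counts.

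The endosperm is the tissue of the maize kernel that stores starch and protein and feeds the seedling. Kernels of defective-kernel mutants fail to fill normally. DEK35 is known as a pentatricopeptide repeat protein of mitochondria, needed for the splicing of a transcript for a subunit of respiratory complex I. Where gene models overlap or lie next to each other as near-identical copies, a sequenced fragment can match more than 1 of them, and programs that compute FPKM then divide such fragments among the models by an estimate. The maize genome is rich in tandem gene copies, among them the families that encode the abundant storage proteins of the endosperm.

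The tables name no gene and give no extent for a single row, so what the rows of a locus stand for (separate genes, alternative transcripts or predicted models) is not known. No locus on the 10 chromosomes overlapped another one, whereas rows either had identical coordinates or none in common. Rows of the same locus were rarely listed together: in 164 of the 3028 loci a pair of rows stood next to each other in the table, and the median smallest distance was 13584.5 table rows. No locus held a pair of rows with identical FPKM in both libraries. None of the 3028 loci had the start and end of a gene in the reference table used here, which belongs to another assembly, so that no locus is named, no marker of the endosperm could be checked and no sequence is shown.

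Most multi-row loci, 2707 of 3028, were listed in 2 rows. Another 278 had 3 rows, 35 had 4, 5 had 5, 2 had 6 and 1 had 8. They made up between 16.5% of the loci entered on chromosome 10 and 19.6% on chromosome 6. Their median span was 5093 bp (quartiles 2939 to 8854 bp), against 3639 bp for the 13297 single-row loci that reached the same minimum, and none spanned under 200 bp, whereas 281 of the single-row loci did. Median sums were 21.3 FPKM in dek35 and 13.2 FPKM in wild type for multi-row loci, against 16.3 FPKM in dek35 and 9.77 FPKM in wild type for single-row loci.

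The multi-row loci held 22.7% of all summed FPKM in the dek35 library and 31.2% in the wild-type library. The lower share in dek35 rested on 11 abundant loci described below, a set chosen after the values were seen. The remaining multi-row loci held 21.9% of the dek35 total and 11.4% of the wild-type total, where both totals still include the 11 loci. Because the 11 were selected as lower in dek35, leaving them out had to lower the wild-type percentage more. No more is read from the remaining percentages. In bulk tissue, fewer cells of a type and less RNA per cell cannot be told apart.

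As a class, multi-row loci differed between the genotypes about as single-row loci did. The ratio used throughout is log2((dek35 + 1)/(wild type + 1)), which understates the change of low loci. Its median over the sums of multi-row loci was 0.74, against 0.79 for single-row loci. The median over all 16325 loci entered was 0.78, or 1.72-fold, and ratios are therefore also given relative to it. Folds of single loci and rows are given as deposited, so that a row higher by less than 1.72-fold lies below the median locus. As deposited, 1157 of 3028 multi-row loci (38.2%) were higher in dek35 by 2-fold or more, against 40.3% of all loci entered, and 155 (5.12%) were lower by as much, against 5.03%. Relative to the median locus, 469 (15.5%) were higher by 2-fold or more and 457 (15.1%) were lower by as much, where the background was 15.9% and 14.3%. At 4-fold, 128 were higher and 120 lower relative to the median (4.23% and 3.96%, against 4.28% and 3.97% of all loci). These shares lay near the background, so being listed in several rows went with no excess of differing sums.

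The next question was whether the rows of a locus kept their proportions in the mutant. For each locus the share of each row was taken as its percentage of the summed FPKM in each library, a measure that no scaling between the libraries can change. In 9 loci every row was listed at 0 (1e-05 FPKM or less) in 1 library, and these have no shares there. In the other 3019 loci the dominant row, the one with the highest FPKM, held a median of 80.3% of the sum in dek35 (quartiles 63.3% to 95.7%) and 81.7% in wild type (65.4% to 96.2%). The dominant row reached 90% in 1068 loci in dek35 and in 1129 loci in wild type, and it was the same row in both libraries, at that level, in 869 loci. At the other end, the dominant row held under 60% in 578 loci in dek35 and in 494 in wild type.

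The same row was dominant in dek35 and wild type in 2628 of 3019 loci (87.0%), and another row was dominant in 391 (13.0%). The share distance, defined as the summed absolute differences of the row shares divided by 2, is 0 when the proportions are the same and 100 percentage points when they share nothing. Its median was 4.99 points (quartiles 1.65 to 11.8), and 1511 loci (50.05%) lay under 5 points. It reached 20 points in 389 loci (12.9%) and 50 points in 108. Many changes of the dominant row were narrow: in 195 of the 391 loci the leading row was less than 10 points ahead of the next row in at least 1 library. In 126 loci a row with at least 60% gave way to another row with at least 60%, and in 39 both rows held at least 90%. Of the 391 loci, 111 held a row listed at 0 in 1 library and 280 did not.

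**Figure D1:**
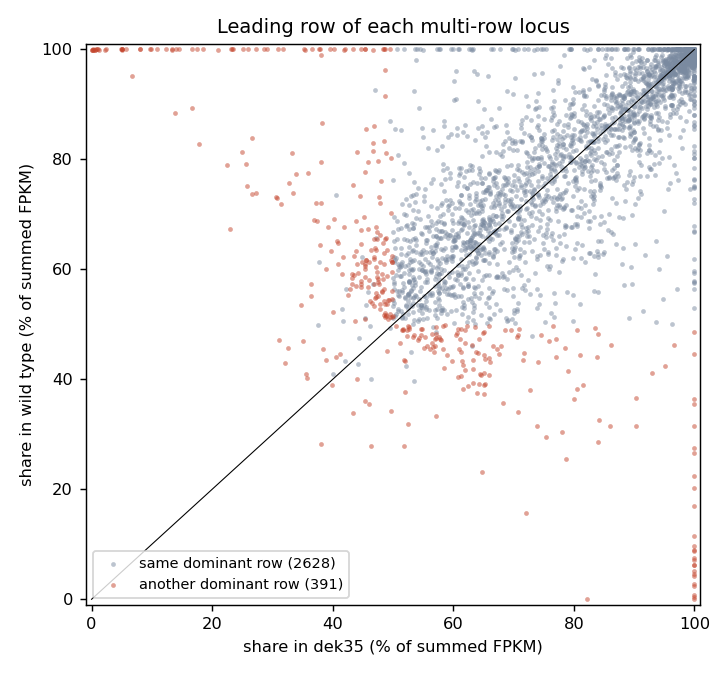
Share of the leading row (the row with the highest mean share over both libraries) in the summed FPKM of its locus, in dek35 on the horizontal axis and in wild type on the vertical axis, both in percent; each point is 1 of 3019 loci and the line marks equal shares. Most points follow the line, with 2628 loci that had the same dominant row in both libraries and 391 that had another one; points along the upper and right edges are loci in which the other rows were at or near 0 in 1 library.

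Changes in proportion were larger where the locus was less abundant. Grouped by the lower of the sums in the 2 libraries, the median share distance was 8.92 points in 702 loci under 5 FPKM, 4.93 points in 1294 loci from 5 to 20 FPKM and 3.73 points in 859 loci from 20 to 100 FPKM. It was 1.58 points in 142 loci from 100 to 500 FPKM and 1.27 points in 22 loci of at least 500 FPKM. Another dominant row was found in 19.4%, 11.8%, 10.4%, 7.75% and 9.09% of these groups, in the same order, and a distance of at least 20 points in 26.9%, 10.97%, 6.29%, 2.82% and 0%. Depth per value is unknown, and its part in this order was not tested. Loci in the group under 5 FPKM passed the minimum in 1 library alone and are thereby selected for a difference of the sums. Their median log2 ratio was 1.26, against 0.57 in the group from 5 to 20 FPKM. The median distance also fell from group to group among loci of at least 5 FPKM in both libraries. The number of rows went with the distance too: its median was 4.55 points with 2 rows, 9.19 points with 3 rows (277 loci) and 9.50 points with 4 or more rows (43 loci), and the dominant row differed in 11.9%, 21.7% and 23.3%.

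**Figure D2:**
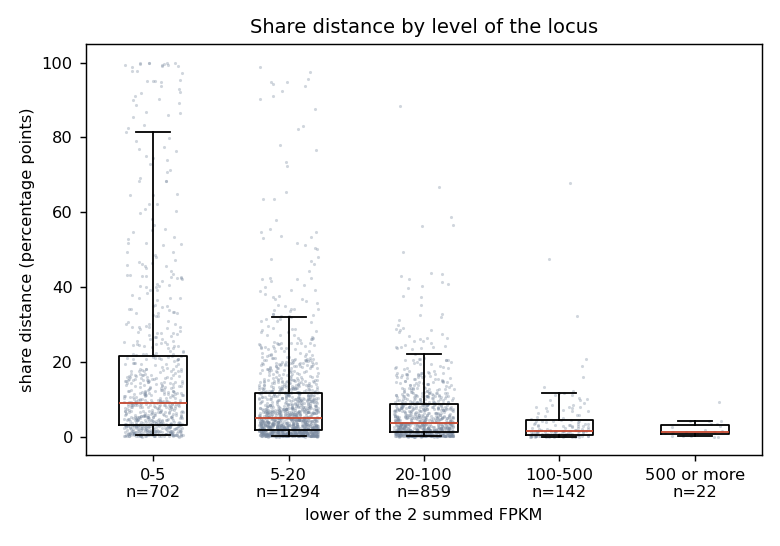
Share distance between dek35 and wild type in percentage points (vertical axis) for loci grouped by the lower of their summed FPKM values (horizontal axis, n below each group); red lines are medians, boxes quartiles, whiskers the 5th and 95th percentiles and points single loci. The medians run from 8.92 points in loci under 5 FPKM to 1.27 points in loci of at least 500 FPKM.

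Proportions also differed more where the sum of the locus differed more. Among 2102 loci whose sum stayed within 2-fold of the median ratio the median distance was 4.67 points, and 9.90% had another dominant row. Of the loci with shares in both libraries, 122 had sums higher by 4-fold or more against the median; in these the distance was 11.7 points and 35.2% had another dominant row; in the 117 loci lower by as much, these values were 9.31 points and 28.2%. A large change of 1 row alters both the sum and the shares, so the distance and the change of the sum are not separate measurements here.

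The leading row held slightly less of the sum in the mutant. With the leading row of a locus taken as the one with the highest mean share over both libraries, its median share was 79.5% in dek35 and 81.3% in wild type. Its share was higher in dek35 in 1349 loci and lower in dek35 in 1670, with a median difference of -0.42 points. It was at least 20 points higher in dek35 in 158 loci and at least 20 points lower in 213. Rows listed at 0 moved with this result: on chromosomes 1 to 10, 3478 rows were listed at 0 in dek35 and 5993 in wild type. Among the 2466 multi-row loci with no row at 0, the leading row was higher in 1143 and lower in 1323, but at least 20 points higher in 103 and at least 20 points lower in 97. The excess of large losses over large gains was thus absent without the rows listed at 0.

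Rows of a locus mostly moved together. Among 1280 loci with at least 2 rows of at least 5 FPKM in 1 library, the highest and lowest row ratio of a locus differed by a median of 0.46 (log2), and by at least 1 in 270 loci (21.1%). To set this beside the rest of the tables, the 1101 loci of exactly 2 such rows were compared with 5103 pairs of neighbouring single-row loci of the same minimum. The absolute difference of the log2 ratios had a median of 0.43 between the rows of 1 locus (quartiles 0.18 to 0.86) and of 0.82 between neighbouring loci (0.36 to 1.53). It was at least 1 in 19.5% of row pairs and in 41.9% of neighbour pairs. Restricting the neighbours to the 1893 pairs at most 5000 bp apart left a median of 0.74. Dividing each pair's summed FPKM in the same way, the higher member changed in 17.2% of row pairs and in 22.2% of neighbour pairs. Levels were similar, with a median of 18.0 FPKM per row and 17.5 FPKM per neighbouring locus. Whether fragments shared between rows pull their ratios together was not tested.

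**Figure D3:**
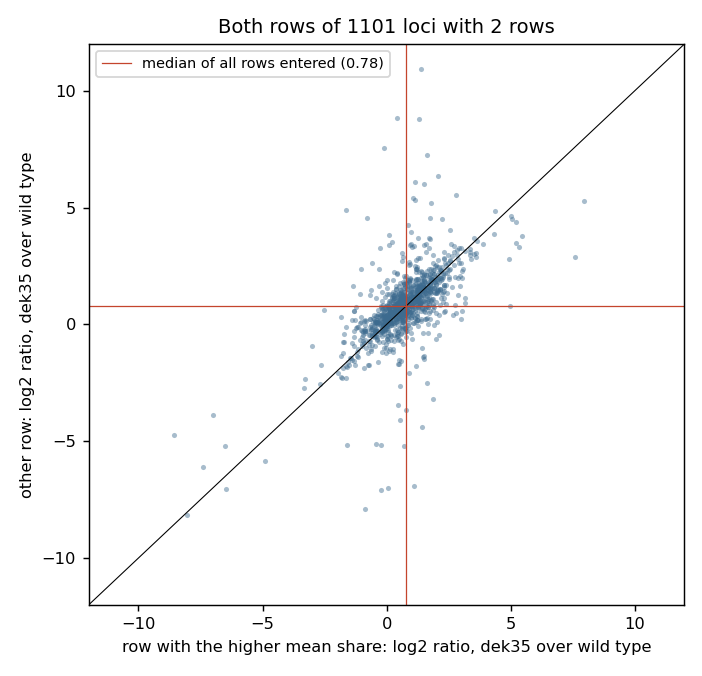
Log2 ratio of dek35 to wild type of the row with the higher mean share (horizontal axis) and of the other row (vertical axis) in 1101 loci with 2 rows of at least 5 FPKM in 1 library each; the black line marks equal ratios and the red lines the median of all rows entered (0.78). Most points lie along the line of equal ratios, and the rows differ by at least 1 in 19.5% of the loci.

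The 5 most abundant multi-row loci kept their proportions while their sums differed strongly between the genotypes. The locus with the highest mean sum, on chromosome 4 (5535486 to 5536705), had 365 FPKM in dek35 and 66818 FPKM in wild type, a 183-fold difference. Its first row held practically all of that, while the other row had 0.121 FPKM in dek35, and wild type listed it at 0. The locus next in abundance, on chromosome 2 (183991961 to 183993036), had rows of 937 and 6202 FPKM in dek35, against 5530 and 39833 FPKM in wild type. Both rows were lower in the mutant, by 5.90-fold and 6.42-fold, and the larger one held 86.9% of the sum in dek35 and 87.8% in wild type.

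A chromosome 7 locus (120233940 to 120236057) showed the smallest difference of these 5, with rows of 1061 and 8133 FPKM in dek35, against 2677 and 18454 FPKM in wild type. Its dominant row held 88.5% in dek35 and 87.3% in wild type. On chromosome 4 (29951761 to 29952727), the rows had 0.677 and 295 FPKM in dek35, against 60.1 and 27203 FPKM in wild type. These rows differ in level by a large factor within each library. Still, the minor row held 0.229% in dek35 and 0.220% in wild type, so it followed the main row at this locus. Minor rows of other abundant loci did not always do so: at 5521259 to 5523302, given below, the minor row was 125-fold lower and the main row 396-fold lower. The last of the 5, also on chromosome 4 (21334901 to 21335979), had rows of 89.8 and 10.1 FPKM in dek35, against 23976 and 3165 FPKM in wild type, and the first row held 89.9% in dek35 and 88.3% in wild type.

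A set of 11 loci had at least 500 FPKM in wild type and a sum lower by 4-fold or more in dek35, measured against the median locus; it was chosen after the values were seen. Together they summed to 8744 FPKM in dek35 and 242886 FPKM in wild type, which was 0.824% of the dek35 library and 19.8% of the wild-type library. None had another dominant row, their median share distance was 1.35 points and the largest was 7.64 points. Where 1 row holds nearly all of the sum, as in several of these loci, the distance stays small even if a minor row changes by another factor. Row ratios were compared in the 10 of these loci with at least 2 rows of 5 FPKM or more in 1 library. The highest and lowest differed by a median of 0.85 (log2) and by at most 3.84, and the median over all 1280 such loci was 0.46. The pseudocount of 1 can widen these differences where a minor row is low in dek35, so nothing is read from this contrast. At 29951761 to 29952727, for example, the rows were 88.8-fold and 92.1-fold lower as deposited, but their log2 ratios were -5.19 and -6.52. Of the 11, 9 lay on chromosome 4, which held 310 of the 3028 multi-row loci. Most of these 9 lay close together, between 5098147 and 5561370 or between 29951761 and 29964591. They are therefore not taken as independent loci.

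The locus with the most rows was among the abundant loci that were lower in dek35. It spans 43930 bp on chromosome 4 (5098147 to 5142076) and was listed in 8 rows, which summed to 224 FPKM in dek35 and 18677 FPKM in wild type. Row 2 was dominant, with 94.2 FPKM in dek35 and 8102 FPKM in wild type, or 42.0% and 43.4% of the sum. Row 5 followed with 49.5 FPKM in dek35 and 3353 FPKM in wild type, and row 3 with 30.7 FPKM in dek35 and 3342 FPKM in wild type. Rows 1, 6 and 7 had 7.24, 19.0 and 21.9 FPKM in dek35, against 938, 1068 and 1871 FPKM in wild type. These 6 rows were between 56.2-fold and 129.6-fold lower in the mutant. The other two rows stood apart: row 4 had 1.30 FPKM in dek35 and 2.31 FPKM in wild type, and row 8 had 0.476 FPKM in dek35 and 0.503 FPKM in wild type. A single locus thus held 6 abundant rows with a strong difference and 2 low rows that differed by less than 2-fold.

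**Figure D4:**
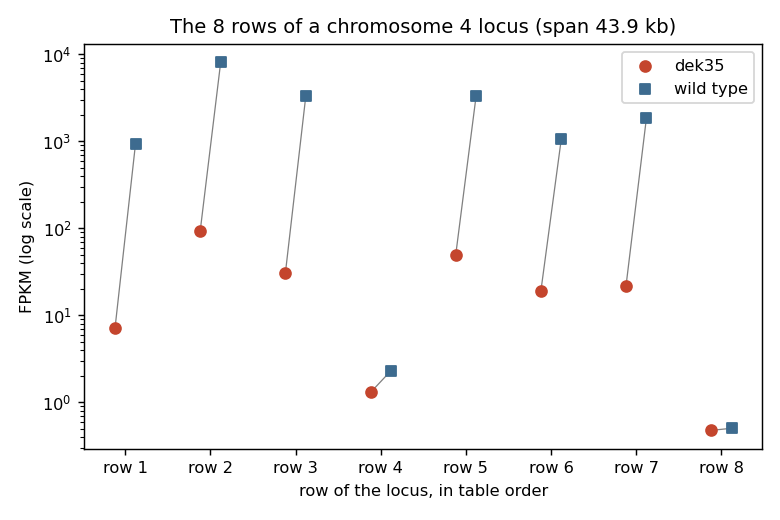
FPKM on a log scale (vertical axis) of the 8 rows of the chromosome 4 locus from 5098147 to 5142076 (horizontal axis, in table order), with dek35 as red circles and wild type as blue squares joined by grey lines. In 6 rows wild type is 56.2-fold to 129.6-fold above dek35, and rows 4 and 8 lie low in both libraries.

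Loci of chromosome 4 also had the 4 lowest ratios of all multi-row loci with at least 20 FPKM in both libraries, among them the loci at 21334901 to 21335979 and 5535486 to 5536705 given above. At 5521259 to 5523302 the rows had 0.256 and 20.3 FPKM in dek35, against 32.1 and 8048 FPKM in wild type, and the sum was 393-fold lower in dek35. The larger row was 396-fold lower and the smaller one 125-fold lower. At 5548770 to 5561370, rows 1 and 3 had 46.8 and 37.3 FPKM in dek35, against 10113 and 7222 FPKM in wild type, while row 2 was listed at 0 in dek35 and had 0.761 FPKM in wild type. Rows 1 and 3 shared the sum at 55.7% and 44.3% in dek35 and at 58.3% and 41.7% in wild type, so both abundant rows were lower by a similar factor, 216-fold and 194-fold.

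Multi-row loci with higher sums in the mutant were of more than 1 kind. Among loci with at least 20 FPKM in both libraries, the highest ratio belonged to a chromosome 3 locus (126543137 to 126549231), in which row 1 had 1219 FPKM in dek35 and 1.73 FPKM in wild type, while row 2 had 88.2 FPKM in dek35 and 34.6 FPKM in wild type. Row 1 was therefore 705-fold higher and row 2 2.55-fold higher, and the dominant row differed. In the other three loci of the 4 highest ratios, the proportions stayed. On chromosome 6 (3573121 to 3576235) the rows had 103 and 370 FPKM in dek35, against 6.11 and 17.2 FPKM in wild type, 16.9-fold and 21.4-fold higher.

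On chromosome 10 (123209142 to 123210706) the rows had 292 and 379 FPKM in dek35, against 23.8 and 29.4 FPKM in wild type, and both were higher by nearly the same factor, 12.3-fold and 12.9-fold. On chromosome 3 (3885357 to 3888723), row 2 had 263 FPKM in dek35 and 21.2 FPKM in wild type, while row 1 had 0.218 FPKM in dek35 and 0.0372 FPKM in wild type. Both rows were higher in dek35 there as deposited, but row 1 was very low in both libraries and its ratio is not read. Row 2 held over 99% of the sum in each library, so the proportions there say little about row 1. Another set, of 10 loci, had at least 500 FPKM in dek35 and a sum higher by 4-fold or more against the median. It was chosen after the values were seen and holds only loci with shares in both libraries. A chromosome 8 locus with 5487 FPKM in dek35, listed at 0 in wild type and given below, is therefore not in it. Of the 10, 5 had another dominant row, and the median share distance was 7.06 points. Among these 5 are loci on chromosome 1 (219389482 to 219391764) and chromosome 6 (100932595 to 100933153). Their wild-type sums were only 0.218 and 7.84 FPKM, so the wild-type dominant row there rests on low values. The corresponding abundant loci that were lower in dek35 numbered 11, of which 0 had another dominant row; the difference between these small sets was not tested.

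Where the dominant row differed, 1 row was far higher in the mutant in most named cases. The 8 loci with the largest share distance among those with another dominant row and at least 20 FPKM in both libraries are given here, starting with the chromosome 3 locus above, where row 1 held 93.3% in dek35 and 4.76% in wild type. On chromosome 4 (199253963 to 199255236), row 2 had 1309.8 FPKM in dek35, whereas wild type listed it at 0. The other rows of this locus, 1 and 3, had 178 and 444 FPKM in dek35, against 71.7 and 147 FPKM in wild type, and were 2.48-fold and 3.01-fold higher. The dominant row was thus row 2 in dek35 and row 3 in wild type.

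On chromosome 6 (12995620 to 13000911), row 1 had 314 FPKM in dek35 and 8.93 FPKM in wild type, and row 2 had 33.8 FPKM in dek35 and 19.4 FPKM in wild type. Row 1 held 90.3% in dek35 and 31.5% in wild type, although both rows were higher in dek35 as deposited. A row listed at 0 was seen again on chromosome 5 (54761325 to 54766790), where row 2 had 67.1 FPKM in dek35 and was at 0 in wild type, and row 1 had 51.5 FPKM in dek35 and 23.1 FPKM in wild type. On chromosome 6 (44743675 to 44759137), row 3 had 61.0 FPKM in dek35 and 3.82 FPKM in wild type, row 1 had 27.7 FPKM in dek35 and 14.96 FPKM in wild type, and row 2 stayed under 2 FPKM in both. Row 3 was 16.0-fold higher and took 67.9% of the sum in dek35, against 18.6% in wild type.

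In the other three loci of the 8, rows moved against each other or nearly so. On chromosome 7 (21151568 to 21162260), row 1 had 78.7 FPKM in dek35 and 7.29 FPKM in wild type, and row 2 had 26.3 FPKM in dek35 and 31.8 FPKM in wild type. The sum was 2.69-fold higher, and row 1 accounted for it. On chromosome 7 (172768124 to 172772631), the sums were close, 145 FPKM in dek35 and 160.4 FPKM in wild type, but row 1 was 3.51-fold lower (31.8 FPKM in dek35, 111 FPKM in wild type) and row 2 was 2.31-fold higher (113 FPKM in dek35, 48.9 FPKM in wild type). A sum alone would have shown no difference of 2-fold at this locus. The opposite directions hold as deposited. Relative to the median, the log2 ratio was -0.93 for the sum, -2.56 for row 1 and only 0.41 for row 2. On chromosome 5 (76970869 to 76976307), row 4 was listed at 0 in dek35 and had 42.0 FPKM in wild type, row 3 had 21.0 FPKM in dek35 and 9.85 FPKM in wild type, and row 2 had 6.57 FPKM in dek35 and 10.6 FPKM in wild type.

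**Figure D5:**
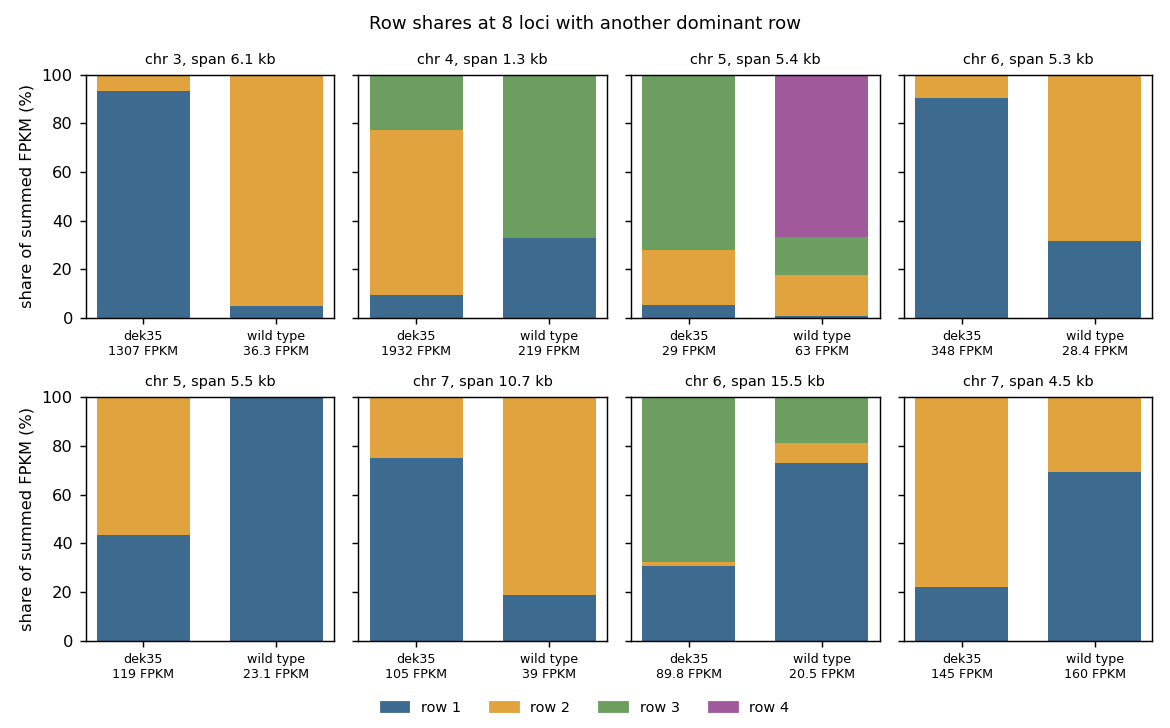
Share of each row in the summed FPKM (vertical axis, percent) at the 8 loci with another dominant row, at least 20 FPKM in both libraries and the largest share distance; each panel shows dek35 as the left bar and wild type as the right bar, with the summed FPKM below, and colours stand for rows in table order. The row that fills most of the bar in dek35 is a minor row or absent in wild type, as at the chromosome 3 locus with 93.3% in dek35 and 4.76% in wild type.

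Among loci with the same dominant row and at least 20 FPKM in both libraries, the 4 largest share distances lay between 40.4 and 43.6 points, and in 3 of these 4 a secondary row was lower in dek35. On chromosome 6 (27449601 to 27461305) the second row was listed at 0 in dek35 and had 16.1 FPKM in wild type, while the first had 30.4 FPKM in dek35 and 20.9 FPKM in wild type. A chromosome 2 locus (231279315 to 231287945) showed the same form, with the second row at 0 in dek35 and 35.1 FPKM in wild type beside a first row of 44.1 FPKM in dek35 and 51.8 FPKM in wild type. On chromosome 2 (208787240 to 208794560), the second row was 8.11-fold lower (1.95 FPKM in dek35, 15.8 FPKM in wild type) and the first 3.23-fold higher (65.9 FPKM in dek35, 20.4 FPKM in wild type). The reverse form was found on chromosome 1 (215379973 to 215381486), where the second row had 81.0 FPKM in dek35 but stood at 0 in wild type, and the first had 111 FPKM in dek35 and 25.8 FPKM in wild type.

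Rows listed at 0 in 1 library and well above it in the other were present in both directions. In wild type alone 381 of the 6433 rows were listed at 0, and in 90 of these the dek35 value reached 5 FPKM (median 12.8 FPKM). In dek35 alone 215 rows were listed at 0, and in 30 of these the wild-type value reached 5 FPKM (median 16.5 FPKM). Over all rows on chromosomes 1 to 10, 5993 were at 0 in wild type and 3478 in dek35, counted whatever the other library held. The larger number in wild type was thus not particular to multi-row loci. The share of all rows at 0 in 1 library and at least 5 FPKM in the other was not counted. An FPKM listed at 0 may be a failed estimate as well as an absence of fragments, and no fold is given for these rows. Among the 9 loci with every row at 0 in 1 library, 6 were at 0 in wild type and 3 in dek35. The most abundant of these, on chromosome 8 (166749692 to 166752509), had 5487 FPKM in its second row and 0.144 FPKM in its first row in dek35, and both rows were listed at 0 in wild type. Another, on chromosome 8 (154900367 to 154901228), had 6.32 and 191 FPKM in dek35 and was at 0 in wild type; the other seven summed to under 15 FPKM in the library in which they were found.

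Some loci divided their FPKM almost identically in both libraries although more than 1 row was well represented. Among loci with at least 20 FPKM in both libraries and at least 2 rows of 20% or more, the 4 smallest distances lay between 0.0230 and 0.0424 points. On chromosome 5 (183201909 to 183203671) the rows had 79.6 and 143 FPKM in dek35, against 48.4 and 86.7 FPKM in wild type, and were 1.643-fold and 1.645-fold higher. On chromosome 7 (15480924 to 15483395) they had 28.6 and 37.9 FPKM in dek35, against 12.7 and 16.8 FPKM in wild type. In both loci the rows were higher by nearly the same factor. The same held on chromosome 10 (143621508 to 143626168), with rows of 24.5 and 6.34 FPKM in dek35, against 21.0 and 5.41 FPKM in wild type, and on chromosome 1 (265241093 to 265242952), with rows of 30.6 and 37.7 FPKM in dek35, against 28.0 and 34.5 FPKM in wild type. Relative to the median locus, 3 of these 4 had lower ratios in dek35 and the chromosome 7 locus a higher one.

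Besides the locus with 8 rows, 2 loci had 6 rows. On chromosome 7 (165864404 to 165948932), row 2 was dominant with 109 FPKM in dek35 and 85.6 FPKM in wild type, or 73.0% of the sum in dek35 and 84.0% in wild type. Rows 1, 3 and 4 had 17.2, 19.1 and 3.63 FPKM in dek35, against 7.89, 6.89 and 1.51 FPKM in wild type, and rows 5 and 6 stayed under 0.4 FPKM in dek35 and were listed at 0 in wild type. The dominant row was 1.28-fold higher in dek35, less than the secondary rows, which were 2.18-fold to 2.77-fold higher. On chromosome 3 (136292387 to 136351651), row 3 had 32.1 FPKM in dek35 and 10.1 FPKM in wild type and row 4 had 7.41 FPKM in dek35 and 2.76 FPKM in wild type, while the other four rows had at most 1.49 FPKM in either library.

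Rows that moved in opposite directions within a locus were few. As deposited, 15 loci held a row higher in dek35 by 2-fold or more and another lower by as much, each with at least 5 FPKM in 1 library; this was 1.17% of the 1280 loci with at least 2 such rows. Among all rows entered, 40.3% were higher by 2-fold or more and 5.19% lower by as much as deposited. Relative to the median row, 10 loci met the same criterion (0.781%), against 3.92% of the neighbouring pairs of single-row loci, and 0.817% of the 1101 loci of exactly 2 rows; 4 loci met it on both scales. In 6 of the 15 a row was listed at 0 in 1 library, and in 9 the sums of the locus were less than 2-fold apart. A case with no row at 0 was a chromosome 10 locus of 4 rows (63625121 to 63634230), whose row 3 had 29.9 FPKM in dek35 and 14.3 FPKM in wild type, while row 1 had 10.5 FPKM in dek35 and 25.02 FPKM in wild type and row 2 had 4.81 FPKM in dek35 and 21.98 FPKM in wild type. This locus was chosen after its values were seen. It met the criterion as deposited but not relative to the median row: the log2 ratio of its row 3 was 1.02, and that of the median row 0.78.

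Sums could cover differences of single rows. Of the 2102 loci whose sum stayed within 2-fold of the median ratio, 211 (10.04%) held a row of at least 5 FPKM at least 2-fold from the median row, and 26 (1.24%) a row at least 4-fold from it. The count of 211 can include loci whose sum and row lie just on either side of the same 2-fold limit. The 4-fold count is less open to this. Leading rows and other rows differed in how often they lay this far from the median row. Among the 2732 leading rows with at least 5 FPKM in 1 library, 13.5% were higher and 15.2% lower by 2-fold or more against the median row, and at 4-fold 3.07% and 3.59%. Among the 1413 other rows of that level, these were 19.5% and 15.9% at 2-fold, and 8.49% and 6.23% at 4-fold. Over all 17451 rows entered, 15.9% were higher by that much and 14.4% lower, with 4.49% and 4.09% at 4-fold. Other rows lie closer to the minimum and often passed it in their higher library alone, so no more is read from this contrast.

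Of the 22 loci with at least 500 FPKM in both libraries, 2 had another dominant row, and in both the change was narrow. On chromosome 9 (11500926 to 11507687), rows 1 and 3 had 777 and 671 FPKM in dek35, against 1654 and 1702 FPKM in wild type. On chromosome 1 (271172696 to 271181023), rows 1 and 2 had 959 and 752 FPKM in dek35, against 239.6 and 293 FPKM in wild type. The 2 leading rows lay within 10 points of each other in each library; both loci were named after their values were seen.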

How the data were processed

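Endosperm mRNA of 1 dek35 and 1 wild-type sample was analysed. The authors deposited FPKM values, per the file headers, and Bowtie 0.12.2 is named in the submitters' processing notes. The FPKM program, the annotation, the genome build, strand use and any pooling of replicates were not given in the sources used here. Depth is unknown.

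Both tables list the same coordinates in the same order and were joined row by row. Starts, which the files count from 0, are printed counted from 1 (7 of 34 mitochondrial coordinates then had the start and end of a gene in the Zm-B73-REFERENCE-NAM-5.0 table, and 0 as listed); on chromosomes 1 to 10, 0 of 38428 matched. Ratios use a pseudocount of 1, and values of 1e-05 or less are described as listed at 0. With 1 library per genotype, all results are descriptions without a test. Sets of coordinates were named by 6 criteria of level, share distance, row number and ratio, and exceptions are stated. The members, lists and criteria were chosen with earlier results of these data known. The steps were tested on the wild-type values set beside a copy of themselves, with planted exchanges of rows and changes of level. The copy held no noise, so the test checks the computation and gives no error rate for changes of the dominant row. Alternatives covered the minimum, the scaling, the pseudocount, the thresholds and rows listed at 0. Computation used matplotlib 3.10.9, scipy 1.17.1, pandas 2.3.3 and numpy 2.4.6 under Python 3.11.15.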

Additional observations from a re-analysis of the deposited data

Results flagged for a closer look

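A multi-row locus outside chromosomes 1 to 10 and outside the comparisons carried a signal in dek35 above the wild-type level. It lies on the mitochondrial genome (111497 to 115826, 3 rows) and summed to 7.71 FPKM in dek35 and 0.931 FPKM in wild type. Its second row was dominant in both libraries, with 6.27 FPKM (81.3% of the sum) in dek35 and 0.629 FPKM (67.5%) in wild type; its first row was listed at 0 in dek35 and had 0.165 FPKM in wild type. Of the 4 multi-row loci outside the chromosomes, it was the only one over 5 FPKM in a library.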

How the results depend on the processing

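No paired analysis was possible because dek35 and wild type have 1 library each, which also leaves no replicate to omit. Of 52 values under 11 alternatives, 27 moved (counts by more than 1.5 times, medians beyond their 95% binomial interval over loci, which are not independent). The median log2 ratio, the only value with a sign to follow, stayed above 0 in the alternatives in which it was computed. It was not computed relative to the median ratio, where its sign would differ: it was 0.74, below the 0.78 over all loci entered. Median-of-ratios scaling brings the ratios near 0 by construction, so the sign there says little. Some values could not move: no multi-row locus spanned under 200 bp, so leaving such loci out removed none. Dropping the minimum likewise could not change the count of loci with rows in opposite directions, because each such row has at least 5 FPKM. A minimum of 20 FPKM in 1 library left 1656 loci, of which 199 had another dominant row, 152 a share distance of at least 20 points, 712 a sum higher by 2-fold or more and 86 one lower by as much; the median distance was 4.01 points and the median log2 ratio 0.84. A minimum of 5 FPKM in both libraries left 2317 loci and gave, in the same order, 255, 200, 718, 86, 4.25 points and 0.60. Without a minimum there were 4430 loci, of which 4288 had shares in both libraries; 775 had another dominant row and 961 a distance of at least 20 points, with medians of 7.17 points and 0.59. These counts change with the number of loci; over loci with shares in both libraries, the percentage with another dominant row was 12.03% and 11.01% under the stricter minima and 18.1% without one. Leaving out loci with a row listed at 0 gave 210 loci with a distance of at least 20 points and 9 with rows in opposite directions. A lead of at least 10 points in both libraries left 196 loci with another dominant row, and a limit of 10 points gave 900 loci. Median-of-ratios scaling, which multiplies every dek35 value by 0.596, gave a median log2 ratio of 0.042 with 517 sums higher and 387 lower by 2-fold or more; equal FPKM totals gave a median of 0.94 and a pseudocount of 0.1 a median of 0.79. Relative to the median ratio, which was chosen after seeing the data, 469 were higher and 457 lower, 50.6% higher against 88.2% as deposited. The shares of rows do not depend on scaling.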
